A study of Mus musculus with 7 samples.

Results

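The numbered zinc finger protein genes are the mouse genes named Zfp followed by digits alone. Of the 339 such genes in a table of 23038 genes, 267 had at least 1 RPKM in Mettl3-mutant or in control haematopoietic stem cells (HSCs), and these 267 genes are described here. RPKM is a read count divided by gene length and by library size. The members were thus chosen by their measured RPKM in both groups, and the same values are compared below. Zfp36 was left out, because its protein binds RNA with another kind of zinc finger. Since the 1 RPKM minimum uses the measured values, a gene that passed it in 1 group alone had to be low in the other. The minimum was reached in both groups by 228 genes, in mutants alone by 20 and in controls alone by 19, and 72 numbered genes reached it in neither.

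The cells were Lineage- Sca1+ cKit+ CD150+ CD48- HSCs sorted from hindlimb bone marrow of adult C57BL/6 mice, with 150 cells for each Smart-seq2 library, a full-length cDNA method for small cell numbers. The mutants were 4 libraries of Mx1-cre; Mettl3fl/fl mice, and the controls were 3 libraries of Cre-negative littermates. Mettl3 encodes the catalytic subunit of the enzyme that places N6-methyladenosine (m6A) on messenger RNA. Mice of both groups received 5 intraperitoneal doses of 10 µg pIpC, an interferon-inducing RNA analogue, and were taken 10 days after the last dose. The Mx1 promoter responds to interferon in many cell types, so deletion was not limited to HSCs, and the controls carried no Cre while they had the same interferon exposure. The deposited table holds 1 value per gene and group, so no value below has an SD, no difference has a replicate check, and no test was possible.

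Zinc fingers of the C2H2 kind are small folds in which a pair of cysteines and a pair of histidines hold a zinc ion, and rows of them read DNA. Many of these proteins also carry a KRAB domain, which recruits Trim28 and through it the histone H3 lysine 9 methyltransferase Setdb1. KRAB zinc finger proteins are best known for silencing endogenous retroviruses and other transposable elements, and their genes lie in clusters of related copies. Other members lack KRAB and act as transcription factors, in RNA processing or in ribosome assembly.

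Mettl3 itself was at 9.60 RPKM in mutants and 49.8 RPKM in controls, or 19.3% of the control level. This value covers the whole gene and not only the deleted part. Each of 11 HSC marker genes had at least 1 RPKM in both groups, with sums of 559 RPKM in mutants and 783 RPKM in controls. The summed level of 19 markers of other blood and marrow cells was 150 RPKM in mutants and 137 RPKM in controls, of which the platelet gene Pf4, also expressed by HSCs, gave 127 and 119 RPKM. Of these 19 markers, 12 were under 1 RPKM in mutants and 14 in controls, and Cd3e, Cd8a and Col1a1 were under 0.1 RPKM in both groups. Of the 7 with at least 1 RPKM in either group, 5 were higher in mutants, with a median log2 ratio (1 RPKM added) of 0.56 over the 7. Mpo, a myeloid granule gene, had 1.43 RPKM in mutants and 0.0492 RPKM in controls, and Itgam, a myeloid integrin gene, had 1.65 RPKM in mutants and 0.727 RPKM in controls. Klf1, an erythroid factor, had 7.13 RPKM in mutants and 4.50 RPKM in controls, and Ppbp, a platelet chemokine gene, had 2.56 RPKM in mutants and 1.31 RPKM in controls. The 2 lower ones were S100a8, also a myeloid gene, and Cd48. S100a8 had 5.09 RPKM in mutants and 6.13 RPKM in controls, and Cd48 had 4.04 RPKM in mutants and 5.33 RPKM in controls. The part of these markers in the results below was not tested. In pools of cells, fewer cells that express a gene and less RNA per cell cannot be told apart.

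As a group the numbered zinc finger genes were low, and their levels in mutants and controls lay close together. The median was 3.99 RPKM in mutants and 3.75 RPKM in controls, against 12.03 and 11.4 RPKM over all 11605 genes with at least 1 RPKM in either group. Levels ran between 0.0132 and 127 RPKM in mutants and between 0.0147 and 120 RPKM in controls. The sum over the 267 genes was 2256 RPKM in mutants and 2043 RPKM in controls, or 0.452% and 0.406% of all RPKM. A mean of both groups under 10 RPKM was found for 218 genes and one of 30 RPKM or more for 9.

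Each difference is the log2 of (mutant + 1) / (control + 1), where 1 RPKM is added to both values and makes ratios of low genes smaller. Counts of genes 2-fold apart use this log2 ratio and describe size without a test. The median log2 ratio of the numbered zinc finger genes was 0.12 and that of all genes 0.02. A ratio above 0 was found for 155 of the 267 genes (58.1%), against 51.7% of all genes. At least 2-fold higher in mutants were 12 genes, or 4.49%, against 4.6% of all genes. At least 2-fold lower were 11 genes, or 4.12%, against 4.34%. Both shares were near those of all genes on this scale. With 0.1 RPKM added in place of 1, 11.2% of the numbered zinc finger genes were higher, against 7.85% of all genes, and 8.61% were lower, against 7.18%. At 1.5-fold, 49 genes (18.4%) were higher, against 14.8% of all genes, and 32 (11.985%) were lower, against 12%. With 1 RPKM added, the values of both groups were within 10% of each other for 50 of the 267 genes, against 2696 of all 11605.

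**Figure D1:**
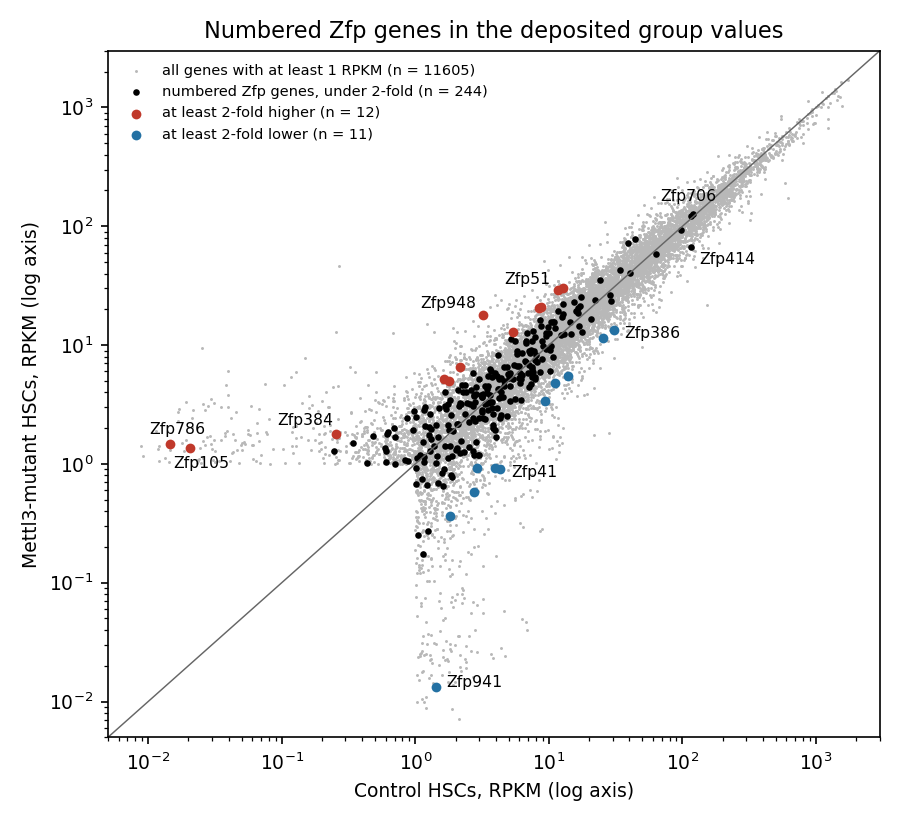
Deposited RPKM in Mettl3-mutant HSCs (vertical, log axis) against control HSCs (horizontal, log axis), 1 point per gene; grey points are all 11605 genes with at least 1 RPKM, black points numbered Zfp genes, and coloured points those at least 2-fold apart with 1 RPKM added. The 12 higher and 11 lower Zfp genes lie at low to middle levels, and the 9 Zfp genes with a mean of 30 RPKM or more lie under 2-fold from the diagonal.

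**Figure D2:**
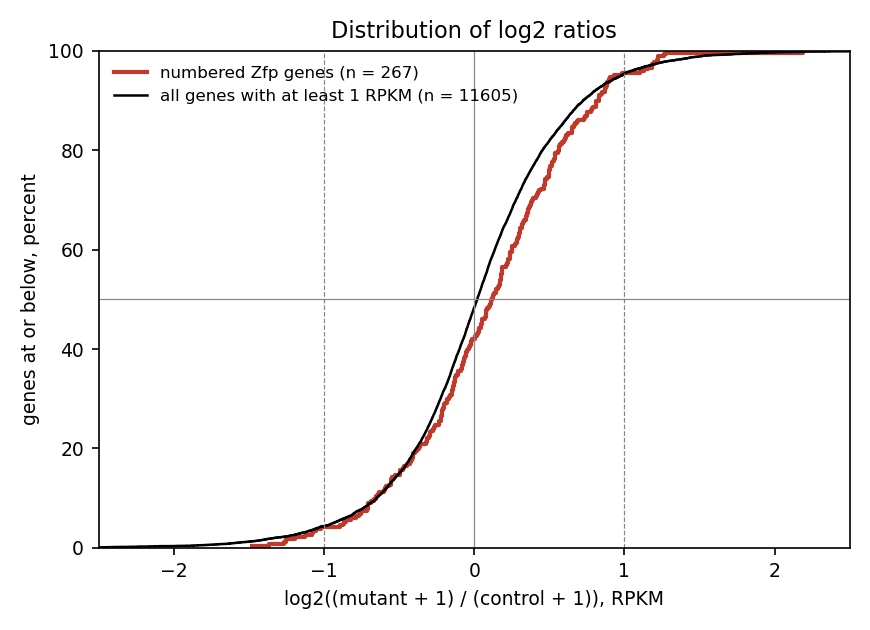
Cumulative share of genes (vertical, percent at or below) by log2((mutant + 1) / (control + 1)) (horizontal) for the 267 numbered Zfp genes (red) and all 11605 genes (black); dashed lines mark 2-fold. The medians are 0.12 and 0.02, and the curves lie close together beyond 2-fold on either side.

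Zfp948, a KRAB gene with 15 C2H2 fingers at chr17:21565816-21589324 (GRCm38), stood highest in mutants relative to controls. It had 18.1 RPKM in mutants and 3.19 RPKM in controls, a ratio of 5.66 and a log2 ratio of 2.19. No other numbered zinc finger gene had a log2 ratio above 1.28. Zfp51, a KRAB gene of the same cluster on chromosome 17, had 28.9 RPKM in mutants and 11.8 RPKM in controls. Zfp959, also a KRAB gene of chromosome 17, had 20.5 RPKM in mutants and 8.39 RPKM in controls. Of its 100-base words, 5.60% also occur in transcripts of other genes, most often Zfp119a, so reads of these genes could be shared.

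Among the 12 highest, 6 genes reached 10 RPKM. Zfp296, a C2H2 factor expressed in embryonic stem cells, had 21.1 RPKM in mutants and 8.70 RPKM in controls. Of its exon bases, 17.2% overlap other genes, most often Gemin7, which cannot be separated without strand. Zfp191, now named Zfp24 and needed for myelination in mice, had 30.2 RPKM in mutants and 12.7 RPKM in controls. Its protein carries a SCAN domain, which pairs such proteins with each other. Zfp932, a KRAB protein that binds endogenous retroviruses in mouse embryonic stem cells, had 12.9 RPKM in mutants and 5.37 RPKM in controls. Other genes, most often Gm15446, share 26.9% of its words.

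Zfp934, Zfp583 and Zfp69 are KRAB genes that stood at 5 to 7 RPKM in mutants and about 2 RPKM in controls. Zfp934 had 6.57 RPKM in mutants and 2.16 RPKM in controls, with 16.1% of its words shared with other genes, most often Zfp808. Zfp583 had 5.17 RPKM in mutants and 1.64 RPKM in controls. Zfp69, a gene of a diabetes susceptibility locus in mice, had 5.02 RPKM in mutants and 1.80 RPKM in controls.

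The other 3 of the 12 were under 1 RPKM in controls. Zfp384, a transcription factor whose human counterpart is fused to other genes in B-cell leukaemia, had 1.80 RPKM in mutants and 0.254 RPKM in controls. Of its words, 8.34% occur in other genes, most often the pseudogene Gm11405. Zfp786 had 1.46 RPKM in mutants and 0.0147 RPKM in controls. Zfp105 had 1.37 RPKM in mutants and 0.0207 RPKM in controls. Both control values equal the offset that the table holds for a gene without reads, so no ratio is given for these genes, and their log2 ratios of 1.28 and 1.22 depend on the added 1 RPKM.

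Of the 11 genes at least 2-fold lower in mutants, Zfp41, which has no KRAB domain, stood lowest. Zfp41 had 0.912 RPKM in mutants and 4.34 RPKM in controls, a log2 ratio of -1.48. Zfp612, a KRAB gene, had 0.918 RPKM in mutants and 3.94 RPKM in controls, a log2 ratio of -1.37. Both had less than 1 RPKM in mutants, as did 4 others of the 11. Zfp941 had 0.0132 RPKM in mutants and 1.43 RPKM in controls, and the mutant value equals 2 reads in 1 of the 4 libraries if the offset is read as described under the processing. Zfp324 had 0.581 RPKM in mutants and 2.76 RPKM in controls. Zfp78 had 0.361 RPKM in mutants and 1.83 RPKM in controls, and Zfp251 had 0.915 RPKM in mutants and 2.88 RPKM in controls. All 6 were above 1 RPKM in controls.

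The remaining 5 stayed above 1 RPKM in both groups. Zfp386 had 13.5 RPKM in mutants and 30.7 RPKM in controls. Zfp692, a C2H2 protein without KRAB, had 11.4 RPKM in mutants and 25.3 RPKM in controls. These were the most abundant of the 11. Zfp286 had 5.49 RPKM in mutants and 13.9 RPKM in controls, Zfp184 had 4.77 RPKM in mutants and 11.1 RPKM in controls, and Zfp239, which lacks KRAB, had 3.36 RPKM in mutants and 9.37 RPKM in controls. The next gene in this order, Zfp783, is a long noncoding RNA in RefSeq and missed 2-fold, with 1.69 RPKM in mutants and 4.00 RPKM in controls. A KRAB domain was found in 8 of the 12 higher genes and in 8 of the 11 lower genes. Of the 263 numbered zinc finger genes with a coding transcript, 154 had this domain.

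**Figure D3:**
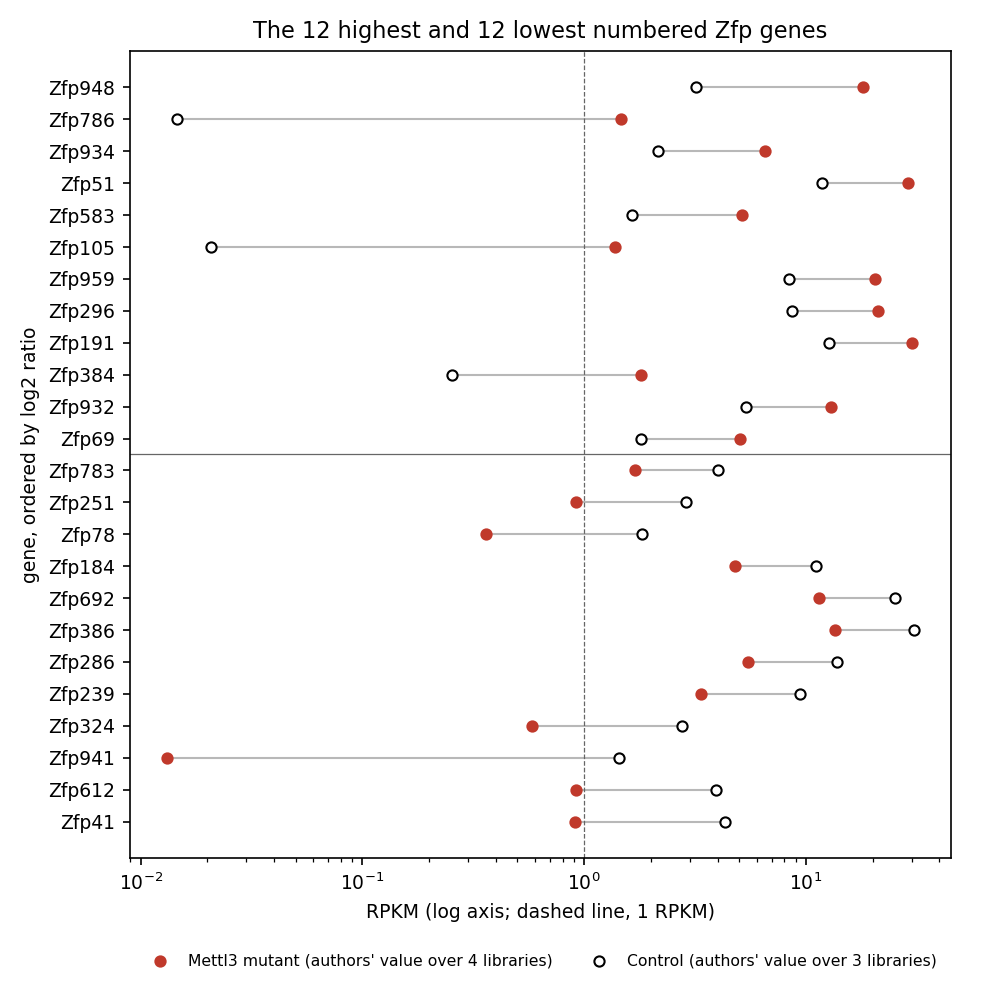
RPKM (log axis) of the 24 numbered Zfp genes at the ends of the log2 ratio order, 12 from each end, filled for Mettl3 mutants and open for controls; the dashed line marks 1 RPKM. Zfp786 and Zfp105 are at 0.0147 and 0.0207 RPKM in controls and Zfp941 at 0.0132 RPKM in mutants, while Zfp948, Zfp51, Zfp386 and Zfp692 exceed 10 RPKM in at least 1 group.

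What the fingers share can be seen in their coding sequence. The first finger with its linker to the next is shown for 4 of the higher and 3 of the lower genes, as 84 bases from 5′ to 3′ of the coding sequence in GENCODE M21; capitals mark the codons of the metal-binding cysteines and histidines.
Zfp948: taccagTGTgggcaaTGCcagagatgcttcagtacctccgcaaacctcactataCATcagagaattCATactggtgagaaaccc
Zfp51: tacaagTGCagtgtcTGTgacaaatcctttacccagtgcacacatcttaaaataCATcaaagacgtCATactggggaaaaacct
Zfp959: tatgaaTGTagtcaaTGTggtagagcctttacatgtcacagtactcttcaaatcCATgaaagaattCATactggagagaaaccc
Zfp934: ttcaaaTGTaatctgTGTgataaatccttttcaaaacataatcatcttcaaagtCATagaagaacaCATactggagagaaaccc
Zfp41: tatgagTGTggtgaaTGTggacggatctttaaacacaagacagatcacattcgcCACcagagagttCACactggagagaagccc
Zfp612: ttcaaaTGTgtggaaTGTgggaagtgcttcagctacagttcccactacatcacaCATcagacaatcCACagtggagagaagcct
Zfp239: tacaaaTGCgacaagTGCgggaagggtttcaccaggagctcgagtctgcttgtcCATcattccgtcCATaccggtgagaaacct
The search asked for this spacing of the cysteines and the first histidine and for such a linker, so these are alike by choice. The linker begins with agt in Zfp612 and with act or acc in the other genes shown. The bases between the marked codons also differ from gene to gene. Between any pair of the 7, 47.6% (Zfp934 and Zfp239) to 72.6% (Zfp959 and Zfp934) of the 84 bases were the same. Zfp959 and Zfp934 are both among the higher genes, and they lie on different chromosomes.

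None of the 9 numbered zinc finger genes with a mean of 30 RPKM or more was 2-fold apart. Of all 3514 genes at that level, 1.59% were 2-fold higher in mutants and 1.37% lower. At 1.5-fold, 2 of the 9 (22.2%) were higher and 1 (11.1%) was lower, against 8.62% and 6.52% of all genes at that level. Zfp706, a small protein with a single finger, had 127 RPKM in mutants and 120 RPKM in controls. Zfp259, now named Zpr1 and a chaperone of the elongation factor eEF1A, had 122 RPKM in mutants and 115 RPKM in controls. Zfp207, which stabilises the spindle checkpoint protein Bub3, had 92.6 RPKM in mutants and 97.6 RPKM in controls. These 3 genes differed by less than 10% between the groups. Zfp277 had 58.1 RPKM in mutants and 63.1 RPKM in controls, and Zfp330 had 40.6 RPKM in mutants and 40.4 RPKM in controls. Zfp422 had 42.6 RPKM in mutants and 33.9 RPKM in controls.

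The others of the 10 most abundant differed more. Zfp637 had 78.7 RPKM in mutants and 44.5 RPKM in controls, and Zfp511 had 72.5 RPKM in mutants and 39.3 RPKM in controls. Of the exon bases of Zfp511, 18.1% overlap other genes, most often Tubgcp2. Zfp639 had 35.0 RPKM in mutants and 24.1 RPKM in controls. Zfp414 was lower, with 66.3 RPKM in mutants and 115 RPKM in controls. Other genes, most often Gm20507, share 21.6% of its words and 28.0% of its exon bases, so such reads cannot be separated here.

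By level, genes with a mean of 10 to 30 RPKM had the highest median of the 4 level classes. Members with a mean under 1 RPKM, among them Zfp786, Zfp105 and Zfp941, are in none of these classes. Of 40 such genes, 29 were higher in mutants, with a median log2 ratio of 0.34 against 0.07 over all 2683 genes at that level. At least 2-fold higher were 5 of the 40 (12.5%), against 4.36% of all genes at that level, and 2 were 2-fold lower (5%), against 2.53%. These 5 were Zfp948, Zfp51, Zfp959, Zfp296 and Zfp191. Below that level the medians were 0.01 for the 85 genes of 1 to 3 RPKM and 0.13 for the 114 genes of 3 to 10 RPKM, against -0.01 and 0.03 over all genes of those levels. Of the 85 genes, 1 was 2-fold higher (1.18%) and 5 were 2-fold lower (5.88%), against 7.03% and 7.29% of all genes at that level. Of the 114 genes, 4 were 2-fold higher (3.51%) and 3 lower (2.63%), against 5.16% and 5.74%. The 9 genes of 30 RPKM or more had a median of 0.08, against -0.003 over all genes of that level. The level uses the same 2 values as the ratio, so these are descriptions.

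Genes whose protein has a described role, in silencing or elsewhere, are a list of 39, of which 30 passed the minimum. Their median log2 ratio was 0.09, with 16 higher and 14 lower in mutants. Only Zfp384, given above, was 2-fold apart, or 3.33% of the 30, beside 4.6% of all genes 2-fold higher. The list was written with earlier results of these data known.

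Among transcription factors of the list, Zfp143, which binds promoters and loop anchors, had 15.6 RPKM in mutants and 10.8 RPKM in controls. Zfp148, a factor of GC-rich sites, had 9.91 RPKM in mutants and 10.4 RPKM in controls, and its relative Zfp281 had 3.64 and 4.36 RPKM. Zfp335, a chromatin-linked regulator, had 8.998 RPKM in mutants and 7.80 RPKM in controls. Zfp410, known in mice and human cells as an activator of Chd4, had 26.3 RPKM in mutants and 28.9 RPKM in controls. Chd4, a remodeller of the NuRD complex, had 19.8 RPKM in mutants and 29.98 RPKM in controls. Zfp521, a cofactor of blood progenitors, had 5.31 RPKM in mutants and 4.36 RPKM in controls. None of these differed 2-fold.

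Among KRAB genes of the list, Zfp57, which maintains imprints in the embryo, had 4.57 RPKM in mutants and 2.34 RPKM in controls. Zfp568, which represses a placental Igf2 transcript in mouse embryos, had 0.252 RPKM in mutants and 1.05 RPKM in controls, near the minimum. Zfp809, which directs Trim28 to retroviral DNA in embryonic stem cells, had 15.6 RPKM in mutants and 14.5 RPKM in controls. Zfp110, also called Nrif, had 12.7 RPKM in mutants and 9.55 RPKM in controls. Zfp746, known as the parkin substrate PARIS, had 6.62 RPKM in mutants and 5.94 RPKM in controls.

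Members that act on RNA, ribosomes or protein turnover were less than 2-fold apart. Zfp106, an RNA-binding protein of the neuromuscular system, had 19.4 RPKM in mutants and 11.6 RPKM in controls. Zfp451, whose human counterpart is a SUMO ligase, had 14.5 RPKM in mutants and 8.68 RPKM in controls. Zfp326, linked to splicing in human cells, had 10.8 RPKM in mutants and 6.75 RPKM in controls. These 3 had log2 ratios of 0.69, 0.68 and 0.61. Zfp598, a ubiquitin ligase of collided ribosomes, had 4.00 RPKM in mutants and 4.39 RPKM in controls. Zfp622 and Zfp593, whose yeast relatives mature the large ribosomal subunit, had 7.43 and 16.6 RPKM in mutants and 7.91 and 20.6 RPKM in controls. Zfp217, known to bind METTL3 protein in embryonic stem cells, had 0.676 RPKM in mutants and 1.01 RPKM in controls, near the minimum.

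The rest of the list is given briefly. Zfp830 had 10.7 RPKM in mutants and 7.46 RPKM in controls, and Zfp644 had 4.56 RPKM in mutants and 3.50 RPKM in controls. Zfp592 and Zfp687, which in human cells are partners of ZMYND8, had 3.49 and 1.28 RPKM in mutants and 5.60 and 2.71 RPKM in controls. Zfp318, needed for IgD expression in B cells, had 1.16 RPKM in mutants and 1.87 RPKM in controls. The log2 ratios of Zfp131, Zfp292 and Zfp91 were 0.13, 0.18 and -0.06.

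Among members with at least 5 RPKM, those nearest to equal included KRAB and other genes. Zfp61 had 12.2 RPKM in mutants and 12.4 RPKM in controls, Zfp52 had 8.27 and 8.06 RPKM, and Zfp329 had 9.20 and 9.49 RPKM. Zfp707, Zfp758, Zfp828 (now Champ1) and Zfp958 had log2 ratios of -0.03, -0.04, 0.05 and -0.06. At the edge of the minimum, Zfp142 had 1.00 RPKM in mutants and 0.701 RPKM in controls, Zfp575 had 0.926 and 1.01 RPKM, and Zfp953 had 1.01 and 0.439 RPKM. Just outside it, Zfp167 had 0.384 RPKM in mutants and 0.982 RPKM in controls, Zfp937 had 0.902 and 0.960 RPKM, and Zfp628 had 0.856 and 0.959 RPKM.

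By protein, 263 of the 267 genes had a coding transcript in GENCODE M21, 260 of them with a C2H2 finger, and together they held 2714 fingers. Zfp259, Zfp330 and Zfp839 held none by the pattern used. A KRAB domain was found in 154 and a SCAN domain in 13, of which 7 had both. Genes with KRAB had a median log2 ratio of 0.15, with 94 of 154 higher in mutants and 8 genes 2-fold higher and 8 lower (5.19% each). Genes without KRAB had a median of 0.08, with 61 of 109 higher, 4 genes 2-fold higher (3.67%) and 3 lower (2.75%). Over all genes, 4.6% were 2-fold higher and 4.34% lower. The means, 0.11 in both classes, did not separate genes with KRAB from those without. Genes with 15 or more fingers had a median of 0.24 (34 of 49 higher in mutants), against 0.09 with 10 to 14 fingers, 0.15 with 5 to 9 and 0.01 with at most 4.

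**Figure D4:**
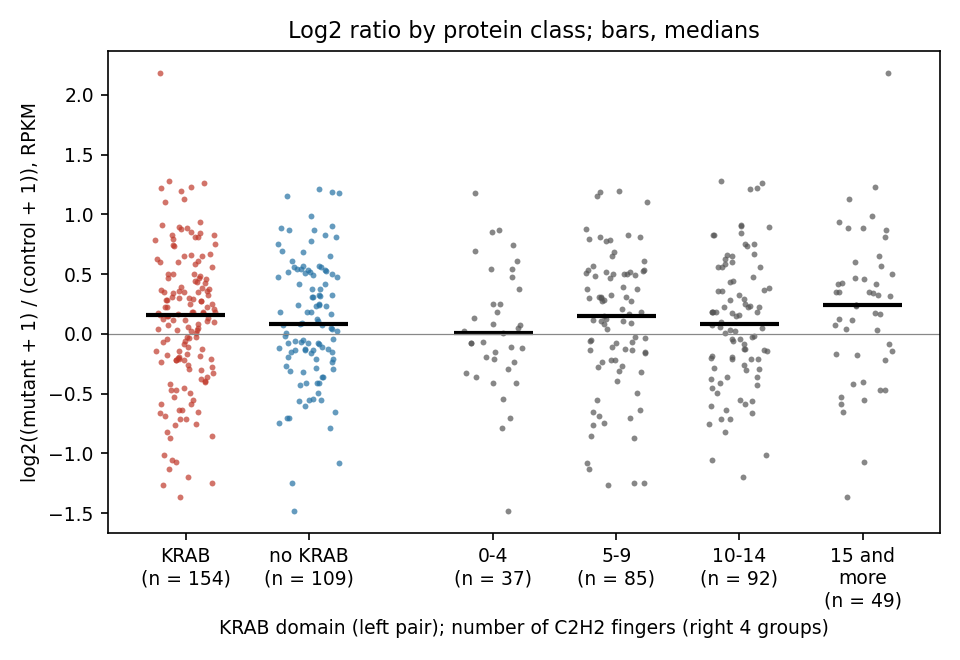
Log2((mutant + 1) / (control + 1)) of each numbered Zfp gene with a coding transcript (points), by KRAB domain and by number of C2H2 fingers, with the median of each class as a bar. The medians lie between 0.01 with at most 4 fingers and 0.24 with 15 or more, and the points of all classes overlap.

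Zinc finger genes with other names are set beside these. The classes can overlap, since a Zkscan or suffix gene with KRAB also counts among the KRAB genes of other names. KRAB genes not named Zfp with digits had a median log2 ratio of 0.21 over 50 genes, of which 32 were higher in mutants. Zbtb genes, which join zinc fingers to a BTB domain, had a median of 0.26 over 25 genes, with 19 higher. The Zscan and Zkscan genes had 0.21 over 12 genes, and Zfp genes with a letter suffix 0.23 over 18. Zc3h genes, whose CCCH fingers bind RNA, had a median of -0.07, with 4 of 13 higher. At least 2-fold apart were 2 KRAB genes of other names in each direction, 1 Zbtb gene higher, 1 Zfp gene with a suffix higher, and 1 Zscan or Zkscan gene in each direction. In shares, 4% of the KRAB genes of other names were higher and 4% lower, and 4% of the Zbtb genes were higher. Of the suffix genes 5.56% were higher, and of the Zscan and Zkscan genes 8.33% were higher and 8.33% lower. Over all genes, 4.6% were higher and 4.34% lower. None of the Zc3h genes was 2-fold apart.

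The genes of the proteins through which KRAB silences were mostly under 2-fold apart. Trim28 had 154 RPKM in mutants and 156 RPKM in controls, and Setdb1 had 14.2 RPKM in mutants and 12.2 RPKM in controls. Of 27 listed genes of this machinery in the table, 15 were higher and 12 lower in mutants, with a median of 0.10. Suv39h2, a histone H3 lysine 9 methyltransferase, was the 1 gene 2-fold apart, with 8.20 RPKM in mutants and 3.51 RPKM in controls. This gene is 3.7% of the 27, beside 4.6% of all genes 2-fold higher. Smarcad1, a remodeller that works with Trim28, had 12.1 RPKM in mutants and 7.35 RPKM in controls. Chd3, a NuRD remodeller related to Chd4, had 2.42 RPKM in mutants and 1.33 RPKM in controls.

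On the chromosomes, 73 of the 267 genes lie on chromosome 7, 35 on chromosome 17 and 24 on chromosome 13. The 73 genes of chromosome 7 had a median log2 ratio of 0.23, against 0.02 for the 803 other genes there. Those of chromosome 17 had a median of 0.13, against -0.05 for 595 other genes. Of these 35 numbered genes 3 were 2-fold higher and 0 lower, and of the 73 on chromosome 7, 2 were higher and 3 lower. Beside these, 4.6% of all genes with at least 1 RPKM were 2-fold higher and 4.34% lower. The highest median of any chromosome was 0.30, over 14 genes of chromosome 5, against 0.06 for 731 other genes. The lowest was -0.36, over 3 genes of chromosome 3, against -0.01 for 542 other genes. On chromosome 15, 1 of 8 genes was above 0 (Zfp706), and the median was -0.35, against 0.02 for 452 other genes; Zfp41 and Zfp251 lie there.

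Runs of at least 5 numbered zinc finger genes with gaps of at most 500 kb made 12 clusters holding 116 of the genes. Genes in clusters had a median of 0.13 and the 151 outside a median of 0.11. The longest, at chr17:21008941-23564226, held 19 genes, each with KRAB, of which 13 were above 0. In it Zfp948 at 2.19 lies beside Zfp52 at 0.03 and Zfp760 at 0.04, and Zfp51 at 1.23 lies beside Zfp54 at -0.03 and Zfp53 at -0.47. The 2 high genes of this cluster thus stand next to genes at or below equal.

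Other clusters were mixed in the same way. At chr13:67069398-67683512, 7 of 11 KRAB genes were above 0 with a median of 0.35, and at chr6:47815536-48621548, 7 of 11 genes were below 0 with a median of -0.22. At chr7:6131489-6396637, Zfp583 at 1.22 lies beside Zfp78 at -1.06. At chr7:12412549-12985717, Zfp128 at 0.88 lies beside Zfp324 at -1.25, and on chromosome 6 Zfp786 at 1.28 lies beside Zfp398 at -0.85. Over the 104 pairs of neighbours within clusters, 54 lay on opposite sides of 0 and 50 on the same side, 34 of these above it.

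**Figure D5:**
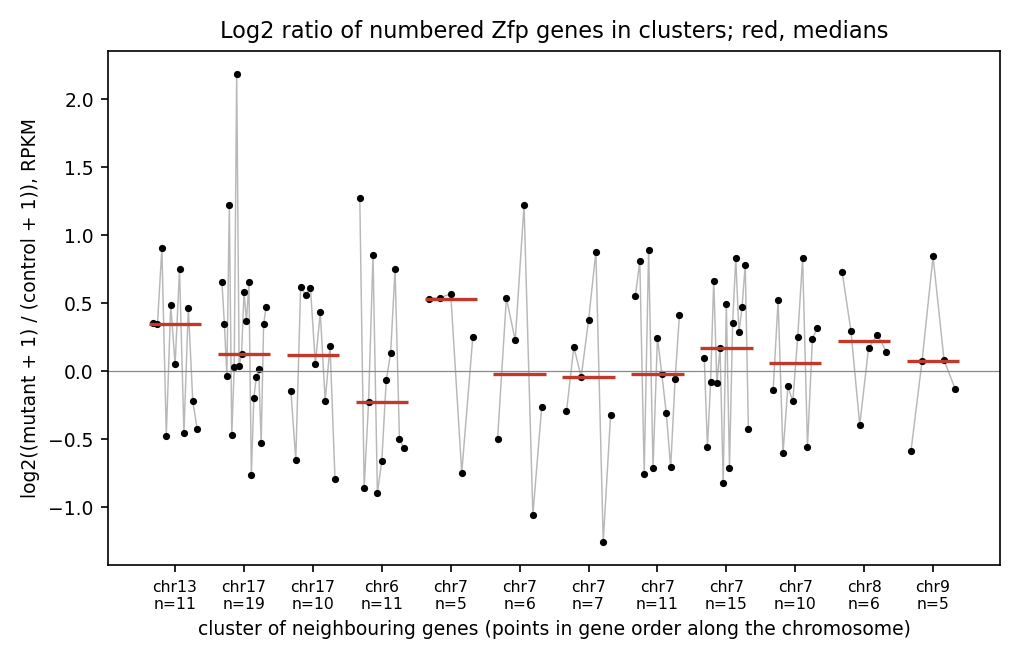
Log2((mutant + 1) / (control + 1)) of the numbered Zfp genes of each of the 12 clusters, in order along the chromosome, with the median of each cluster as a red bar. Genes far above and far below 0 stand side by side, as Zfp583 (1.22) and Zfp78 (-1.06) do on chromosome 7.

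Transcripts of these genes have long exons, and m6A is known to be concentrated in long internal exons and near stop codons. The longest exon was taken at any position, the last exon included, so its length does not describe internal exons. Its median was 2530 bases in the 263 genes, against 1229 bases over 10947 genes with a coding transcript. The 3′ UTR had a median of 1208 bases against 874, and the number of exons was 5 against 9. GC content was 45.8% against 50.5%, with 43.0% in KRAB genes and 51.0% in the others. GGACT, a frequent m6A sequence context and searched on the transcript strand, occurred at least once in 90.1% of their transcripts, against 91.0% of all, with medians of 0.804 and 1.05 per kilobase.

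Rank correlations of these features with the log2 ratio were weak. Across the 263 genes, Spearman's rho with the log2 ratio was -0.13 for the longest exon, -0.16 for the 3′ UTR, 0.01 for GGACT per kilobase and 0.05 for the number of fingers; over all genes it was 0.08, 0.05, 0.00 and 0.03. Genes are not replicates, all points share the same libraries, and these values carry no test. In 3 groups of 87 or 88 genes by longest exon, the median log2 ratios were 0.18, 0.15 and 0.08 from short to long, with 8, 3 and 1 genes 2-fold higher and 2, 4 and 5 genes 2-fold lower. In 3 such groups by GGACT per kilobase, they were 0.23, -0.09 and 0.20 from low to high. From low to high, 4, 0 and 8 genes were 2-fold higher and 1, 7 and 3 were 2-fold lower, and the medians did not follow the order of the groups. Beside these counts by exon and by GGACT, 4.6% of all genes with at least 1 RPKM were 2-fold higher and 4.34% lower.

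Reads of close relatives limit single values. Of the 267 genes, 61 share 100-base words with another gene's transcripts, 20 of them more than 10% of their words and 3 more than 50%. Exons of 73 genes overlap those of another gene, in 41 by more than 10% of their bases and in 10 by more than 50%, and Smart-seq2 keeps no strand. Zfp935 is counted over 50% in words (59.5%) and in exon bases (64.4%). The entry that most often shares them is the GENCODE entry that bears the name Zfp935, since the transcript used for this gene is of an entry of another name.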

How the data were processed

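RNA was measured in 7 Smart-seq2 libraries of 150 sorted HSCs; reads were paired-end and 100 bp long, per the labels' protocols. The deposited values are RPKM in 2 columns, 1 per group, per the file headers; the sources used here do not state how the authors combined the libraries, nor the aligner or annotation. The submitters' processing notes name mm10 as the build, and Picard and edgeR as tools. The table was used as deposited, and the tests planned for values per library were replaced by rules of size.

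A gene without reads holds a small offset, 0.0349 RPKM in mutants and 0.0414 RPKM in controls at 1 kb, read as 1 read added per library. Steps in low values, if each is 1 read, give library sizes of 25.7, 26.9, 27.2 and 37.7 megareads in mutants and 19.6, 24.3 and 31.1 megareads in controls. Their offsets add up to the observed ones within a relative difference of 1.02e-09 and 8.04e-11. These sizes cannot be tied to single mice. Counting error per gene was not estimated, and the group values hold no spread between libraries.

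Log2 ratios had 1 RPKM added, with pandas 2.3.3 and numpy 2.4.6 in Python 3.11.15; the calculation was tested on simulated data. Gene coordinates are of RefSeq on GRCm38.p6, matched by Gene identifier for 267 of 267 genes; 9 have another symbol there. Proteins, exons and sequences are of 1 coding transcript per gene in GENCODE M21 (GRCm38). KRAB and SCAN were found with profiles (pyhmmer 0.12.3, E-value at most 0.001) built from 175 and 9 proteins with the core pattern, in place of the RefSeq proteins planned. Fingers were counted by the C2H2 pattern.

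Named genes are the 12 highest and 12 lowest log2 ratios, the 10 highest levels, the role list, 3 genes on either side of the minimum, the 10 with at least 5 RPKM nearest to 0, and Trim28, Setdb1 and the 4 silencing genes farthest from 0, together 79. Genes named beside them for their position or overlap were chosen after their values were seen. The genes, lists and rules were chosen with earlier results of these data known.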

Additional observations from a re-analysis of the deposited data

How the results depend on the processing

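No paired analysis was possible because the table holds 1 value per group and no replicate numbers, and leaving out each library in turn and the setting limited to RefSeq proteins were not run for want of such values and proteins. The 12 genes 2-fold higher and 11 lower became 30 and 23 with 0.1 RPKM added, and 33 and 24 with none added, where the counts over all genes, 534 and 504, became 911 and 833, and 964 and 878. As shares, the higher genes were then 11.2% against 7.85% of all genes, and 12.4% against 8.31%, and the lower ones 8.61% against 7.18%, and 8.99% against 7.57%. At 1.5-fold they were 49 and 32. The lower genes numbered 5 with at least 1 RPKM in both groups and 5 with at least 5 RPKM in either; the higher ones numbered 9 and 9. Dividing the mutant column by the median ratio of 1.02, or equalising the sums, left 12 and 11. Chosen after seeing the data were settings without genes that share 100-base words (8 and 9), without Zfp786, Zfp105 and Zfp941 (10 and 10), and with GENCODE coding transcripts alone (12 and 11). The median log2 ratio of the numbered zinc finger genes lay between 0.03, with no minimum, and 0.19, with at least 5 RPKM. The mutant/control ratio of 10 of the 79 named genes changed by over 1.5 times with 0.1 RPKM added, that of 12 with none, and that of 0 under either rescaling; division by the median ratio turned the sign of 1 of the 79, Zfp330, at 0.01. Above 0 were 153 of the 267 genes after that division, against 49.8% of all genes. With 1 value per group, the spread between mice remains unknown for every difference given.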

Other observations

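The first 365 rows of the deposited table stand out of Gene identifier order, while the rows after them ascend, and the table gives no reason. Of the 267 numbered zinc finger genes, 5 (1.87%) are among these rows, against 2.33% of all genes with at least 1 RPKM. They are Zfp948, Zfp51, Zfp786 and Zfp105, with log2 ratios of 2.19, 1.23, 1.28 and 1.22, and Zfp941, with -1.26.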
